A study of Mus musculus with 3 samples.

Results

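The intercalated disc adhesion genes are a named set of 10 genes: the 5 desmosome genes Dsp, Pkp2, Jup, Dsg2 and Dsc2, the 4 adherens junction genes Cdh2, Ctnnb1, Ctnna1 and Ctnna3, and the junctional scaffold gene Tjp1. The set is a list of names and uses no measured value. Each was found as 1 locus that held no other gene name, so 10 of the 48626 loci of the expression table, and 10 of its 20117 mRNA loci, are described here. Total RNA was taken from the heart ventricle of C57BL/6 mice at the embryonic days E10.5 and E13.5 and at 8 weeks (adult), and 1 paired-end library was sequenced per stage. All animals were of the same strain, the labels name no treatment, and the sources used here do not say how many hearts went into a library. With 1 library per stage there is no replicate against which a difference could be checked, so p-values are left out. Where a gene is given 3 values, they are those of the E10.5, the E13.5 and the adult library, in that order.

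The intercalated disc joins cardiomyocytes end to end. Its desmosomes tie the intermediate filaments of neighbouring cells together through desmosomal cadherins, plakoglobin, plakophilin and desmoplakin, and its adherens junctions tie the actin filaments together through N-cadherin and the catenins. In the mammalian heart both kinds of junction come to lie mixed in one structure, the area composita, beside the gap junctions. Inherited variants in desmosome genes are a known cause of arrhythmogenic cardiomyopathy.

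Levels are in FPKM, fragment numbers scaled to the length of the exons and the size of the library, so that genes of different length can be set side by side. From the steps of the lowest values, 1 FPKM over 1 kb stood for about 13.8, 26.7 and 13.8 fragments in the 3 libraries, which puts the members on roughly 792 to 35438 fragments each. The number of fragments limits these values little, and the variation between animals is not known. A change is the difference of log2(FPKM + 1), and a change of 1 or more in size was counted. The comparison set was the 12569 mRNA loci with 1 FPKM or more in at least 1 library, over which the median change was 0.17 from E10.5 to E13.5, -0.50 from E13.5 to the adult and -0.40 from E10.5 to the adult.

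The cell type lists were looked at first, since they set what the bulk values can show. Cardiomyocyte genes were high throughout, with a median of 828, 1425 and 2053 FPKM over 8 loci, although Ttn and the joined Myh6-Myh7 locus were listed at 0 in the adult. Median levels were 0.131, 0.158 and 0.0427 for epithelial genes (7 loci, Krt5 listed at 0 at E10.5), 16.5, 20.1 and 1.71 for epicardial genes, 47.3, 34.6 and 52.5 for endothelial genes, and 18.8, 71.1 and 20.9 for fibroblast genes. They were 1.06, 5.12 and 24.0 for macrophage genes, 1057, 366 and 1.87 for erythroid genes, 1954, 2160 and 1.16 for atrial genes, several of which the embryonic ventricle also uses, and 3.18, 2.38 and 0.306 for skeletal muscle genes, of which Myod1 was listed at 0 at E10.5 and in the adult. Several of these lists differed between the stages, and their part in the results below was not tested. In such bulk samples fewer cells of a type and less RNA per cell cannot be told apart.

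All 10 genes were expressed at every stage. As deposited, their summed level was 750.4, 709.9 and 743 FPKM, and after rescaling by median-of-ratios factors it was 701, 595 and 925. The 5 desmosome genes summed to 161, 114 and 277 FPKM, and the 4 adherens junction genes to 558, 573 and 443 FPKM. Dsp alone held 52.7 FPKM of the desmosome sum at E10.5 and 163 FPKM of it in the adult. The desmosome sum was highest in the adult also after that rescaling (150.2, 95.9 and 344), but the adherens sum was then 521, 479.9 and 551, so that its lower adult value depended on the scaling. Ranked within each library among these 12569 loci, 9 of the 10 genes lay above the median mRNA locus at all 3 stages, and Dsg2 was the exception, at percentile 31.9 at E13.5. Among all mRNA loci Dsg2 too was above the median there, at percentile 57.4, while among those with 10 FPKM or more Jup, Dsg2, Dsc2 and Ctnna3 were below it at E13.5. Ctnnb1 and Ctnna1 stood between percentiles 96.8 and 99.1 throughout.

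**Figure D1:**
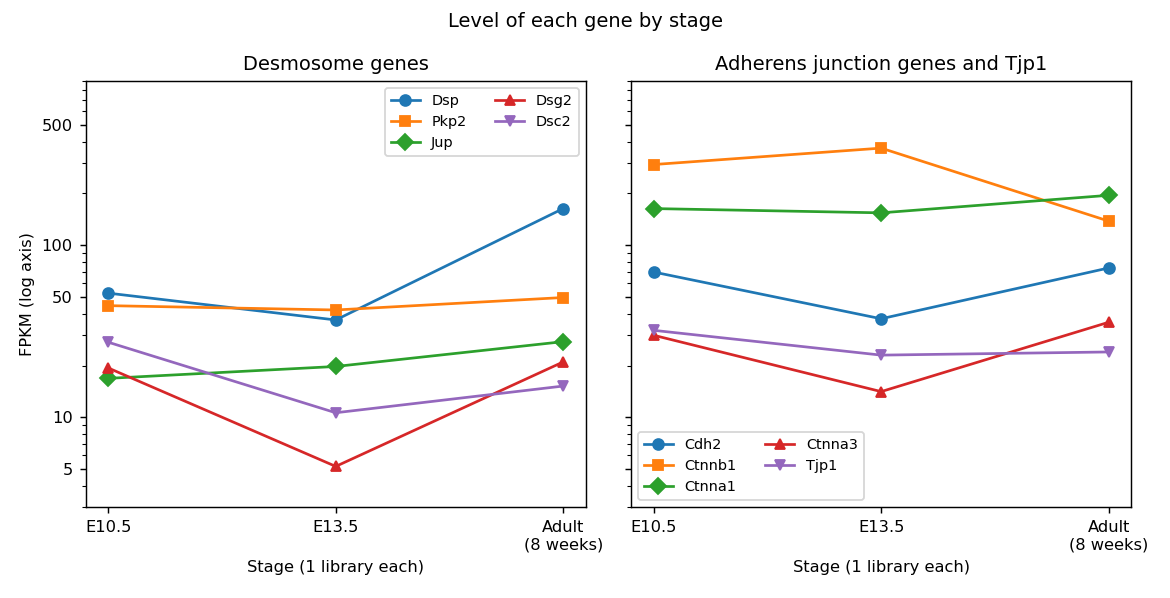
Level of each gene in FPKM on a log axis in the 3 libraries, with desmosome genes in one panel and adherens junction genes and Tjp1 in the other; each point is 1 library and lines only join the points of a gene. Dsp parts from the other desmosome genes in the adult at 163 FPKM, and Ctnnb1 is the one gene of the adherens panel that lies clearly lower in the adult, at 138 FPKM.

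Dsp encodes desmoplakin, the plaque protein that anchors the intermediate filament desmin (chr13:38151249-38199021, plus strand, mm10). It stood at 52.7, 36.8 and 163 FPKM, or at percentiles 90.8, 83.3 and 98.0 of the mRNA loci. The adult level was thus the highest of the 3 and was 3.10 times that at E10.5 and 4.44 times that at E13.5. The change was 1.61 from E10.5 to the adult and 2.12 from E13.5 to the adult, and no other member was higher by 1 or more in the adult than at E10.5. Jup encodes plakoglobin, which binds both desmosomal cadherins and N-cadherin (chr11:100367173-100397790, minus strand). Its level was 16.8, 19.7 and 27.5 FPKM, so it was highest in the adult too, by 0.68 over E10.5, and its percentile went from 66.6 and 69.1 to 85.2. Pkp2 encodes plakophilin-2, the armadillo protein of the cardiac desmosome (chr16:16213325-16272712, plus strand). It was 44.6, 42.1 and 49.7 FPKM, a span of 0.24 between the lowest and the highest stage and the narrowest among the desmosome genes.

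The first lines below show the RefSeq promoter windows (GRCm38.p6, 250 bases before to 50 after the start) of 4 members, read 5′ to 3′ on the gene's strand. Of the 10 members, 5 had windows that were used, and those of Dsp, Jup, Ctnnb1 and Ctnna3 are shown because, among these 5, they differed most between stages or have several starts. Capitals mark GGGCGG or its reverse complement CCGCCC, the core of the GC box, and TATAAA or its reverse complement TTTATA.
Dsp, chr13:38151044-38151343, plus strand: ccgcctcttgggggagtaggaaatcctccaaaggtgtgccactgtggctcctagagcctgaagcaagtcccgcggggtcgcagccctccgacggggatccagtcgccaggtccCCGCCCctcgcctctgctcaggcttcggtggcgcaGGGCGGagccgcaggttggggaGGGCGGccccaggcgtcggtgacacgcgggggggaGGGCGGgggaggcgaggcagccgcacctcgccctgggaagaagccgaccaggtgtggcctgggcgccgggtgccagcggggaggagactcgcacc
Jup, chr11:100397741-100398040, minus strand: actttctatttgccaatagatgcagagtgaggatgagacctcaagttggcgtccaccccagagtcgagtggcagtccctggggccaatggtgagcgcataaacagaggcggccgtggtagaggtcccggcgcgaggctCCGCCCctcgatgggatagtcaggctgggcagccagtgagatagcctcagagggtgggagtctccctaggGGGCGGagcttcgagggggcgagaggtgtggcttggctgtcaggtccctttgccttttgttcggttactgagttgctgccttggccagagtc
Ctnnb1, chr9:120933150-120933449, plus strand: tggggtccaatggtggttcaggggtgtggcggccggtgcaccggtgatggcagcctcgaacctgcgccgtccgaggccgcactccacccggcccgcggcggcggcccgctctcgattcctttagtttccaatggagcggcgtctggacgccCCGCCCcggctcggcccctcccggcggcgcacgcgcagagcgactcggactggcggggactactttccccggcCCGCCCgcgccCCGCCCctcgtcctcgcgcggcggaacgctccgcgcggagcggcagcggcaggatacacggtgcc
Ctnna3 first start, chr10:63429848-63430147, plus strand: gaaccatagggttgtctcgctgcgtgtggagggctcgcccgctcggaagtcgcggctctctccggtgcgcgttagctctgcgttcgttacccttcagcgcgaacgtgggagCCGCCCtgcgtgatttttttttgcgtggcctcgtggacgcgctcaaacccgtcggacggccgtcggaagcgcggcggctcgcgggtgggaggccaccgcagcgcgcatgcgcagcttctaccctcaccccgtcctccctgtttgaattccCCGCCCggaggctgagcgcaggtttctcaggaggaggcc
Ctnna3 second start, chr10:63457261-63457560, plus strand: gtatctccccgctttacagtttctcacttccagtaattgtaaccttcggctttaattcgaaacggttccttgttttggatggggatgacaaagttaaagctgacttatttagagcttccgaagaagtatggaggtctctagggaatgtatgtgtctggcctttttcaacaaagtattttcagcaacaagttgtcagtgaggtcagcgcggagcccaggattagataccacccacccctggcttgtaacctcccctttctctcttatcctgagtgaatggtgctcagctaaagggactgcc
Ctnna3 last start, chr10:63820805-63821104, plus strand: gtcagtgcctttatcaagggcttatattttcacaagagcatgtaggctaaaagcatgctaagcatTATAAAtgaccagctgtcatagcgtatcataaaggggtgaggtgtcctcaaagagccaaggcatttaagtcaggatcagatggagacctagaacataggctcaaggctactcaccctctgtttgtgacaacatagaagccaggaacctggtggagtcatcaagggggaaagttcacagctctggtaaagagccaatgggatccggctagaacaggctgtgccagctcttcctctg

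The windows of Dsp, Jup and Ctnnb1 were rich in G and C, at 73.0%, 60.7% and 75.3%, against a median of 52.7% over 32851 RefSeq promoter windows. GGGCGG was searched on both strands and found 4 times in the Dsp window, 2 times in that of Jup and 3 times in that of Ctnnb1, and 35.7% of all windows hold it. CCAAT was found 2 times each in the windows of Jup and Ctnnb1 and is in 37.4% of all windows. A second, overlapping window of Ctnnb1, which is not shown (chr9:120933328-120933627), held no CCAAT, 3 GGGCGG and 1 TATAAA. The E-box CANNTG was found 1 time in the Dsp window and is in 72.3% of all windows. The 3 RefSeq starts of Ctnna3 differed among themselves. The last of them is not the last start in the assembly, where a transcript begins at chr10:64250285. The ratio of observed to expected CpG was 1.16 at its first start, at percentile 99.1 of all windows, but 0.441 at the second and 0.120 at the last, at percentiles 54.2 and 16.4. Of these 3 only the last held TATAAA, which 13.6% of all windows hold. The deposited levels are per locus and do not say which of these starts was used at which stage.

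Dsp also carried a known splice choice in the deposited assembly. Desmoplakin is made in a long and a short form that differ in the length of the central rod. Beside the reference transcript of 24 exons, an assembled transcript left exon 23 (chr13:38191361-38193655, 2295 nt) at a donor inside that exon and joined the same acceptor, which removed 1797 nt, or 599 codons with no remainder, and kept 498 nt of it. The lines below show 30 bases around each site, with the first or the last 2 bases of the intron in capitals.
Dsp donor of the reference transcript, chr13:38193646-38193675, plus strand: ggctttagagGTattcacaaatatttgatc
Dsp donor of the assembled variant, chr13:38191849-38191878, plus strand: gctggcaaagGTaagaaaccactataatga
Dsp shared acceptor, chr13:38194676-38194705, plus strand: ctttcttttttgaattctAGgcatctaata

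Both donors begin with GT and the acceptor ends with AG. The level of each Dsp form at each stage was not analysed here, since the table gives 1 value for the locus.

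The desmosomal cadherins, whose outer domains meet those of the next cell, were both lower by 1 or more at E13.5 than at E10.5, which none of the 3 plaque genes was. Dsg2, desmoglein-2, stood at 19.4, 5.18 and 21.0 FPKM (chr18:20558116-20604526, plus strand). The E13.5 library was therefore the low one, 0.268 times E10.5, and the adult was 4.05 times E13.5 and 1.08 times E10.5. The changes were -1.72 and then 1.83, and the adult differed from E10.5 by 0.11. Dsc2, desmocollin-2, was 27.3, 10.6 and 15.2 FPKM (chr18:20029229-20059544, minus strand). It was highest at E10.5, with changes of -1.28 to E13.5 and -0.81 from E10.5 to the adult. The ratio of Dsc2 to Dsg2 was 1.41, 2.05 and 0.724, so Dsc2 was the higher of the pair in both embryonic libraries and Dsg2 in the adult. An assembled Dsc2 transcript skipped the 46-nt exon 16 of 17 (chr18:20032490-20032535), whose length leaves a remainder of 1 when divided by 3. This is the exon whose use is known to give the a and b forms of desmocollin tails.

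Of the adherens junction genes, Cdh2 encodes N-cadherin, the classical cadherin of cardiomyocytes (chr18:16587642-16809122, minus strand). Its level was 69.9, 37.4 and 73.8 FPKM. The adult and E10.5 libraries differed by only 0.08, and E13.5 was lower by 0.88 and 0.96. Ctnnb1 encodes β-catenin, which links N-cadherin to α-catenin and also carries the Wnt signal to the nucleus (chr9:120933400-120960507, plus strand). It was 294, 367 and 138 FPKM, so both embryonic libraries lay above the adult one. The adult level was 0.469 times that at E10.5 and 0.377 times that at E13.5, with changes of -1.09 and -1.40. Ctnnb1 was the one member lower by 1 or more in the adult in either comparison, although these differences were -0.68 and -0.84 once the libraries were rescaled by median-of-ratios factors, both short of the limit.

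The 2 α-catenins, which bind actin, had different courses. Ctnna1, the widely expressed αE-catenin (chr18:35118912-35254778, plus strand), was 163, 154 and 195 FPKM. It was close to level, with changes of -0.08 and 0.34. Ctnna3, the αT-catenin typical of heart and testis that also binds plakophilin-2 (chr10:63430098-65012528, plus strand), was 30.0, 14.1 and 35.7 FPKM. Like Dsg2 it was low at E13.5 only, with changes of -1.04 and 1.28. It made up 15.5%, 8.38% and 15.5% of the summed FPKM of the pair, so that its share was the same at the first and the last stage.

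Tjp1 encodes ZO-1, the scaffold that binds the gap junction protein connexin 43 (chr7:65289647-65371282, minus strand). It was 32.0, 23.0 and 24.0 FPKM, highest in the youngest library. Its adult difference from E10.5 was -0.40, the same as the median of all mRNA loci, and it turned to 0.02 when the median of loci of like length was taken off.

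**Figure D2:**
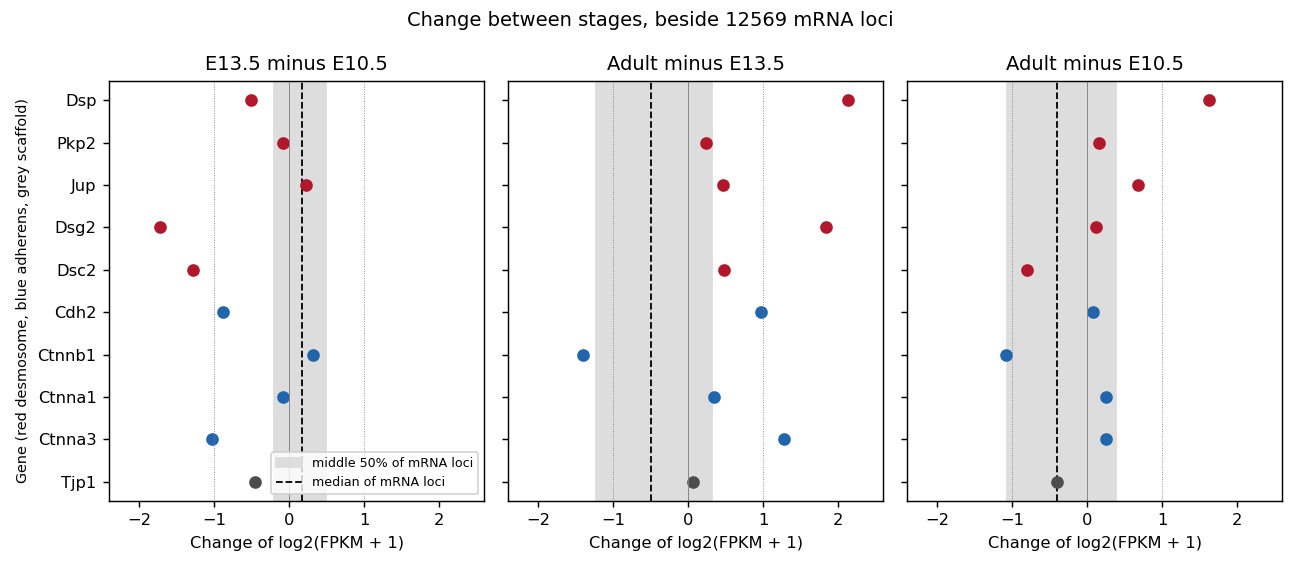
Change of log2(FPKM + 1) for each gene in the 3 comparisons, each point from 1 library against 1 library, with the middle 50% of the 12569 mRNA loci in grey and their median as a dashed line. Dsp lies far to the right in both comparisons with the adult, and Ctnnb1 lies on the left there, while Dsg2, Dsc2 and Ctnna3 lie on the left from E10.5 to E13.5.

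Counted over the 10 genes, from E10.5 to E13.5 none was higher and 3 were lower by 1 or more (Dsg2, Dsc2 and Ctnna3), against 5.89% of the mRNA loci higher and 4.85% lower. In all, 8 of the 10 were below 0 and the median was -0.48, against a median of 0.17 for the mRNA loci. The share of mRNA loci on each side of 0 is not given here. Whether the counts above or below 0 in this paragraph are ordinary therefore cannot be said. From E13.5 to the adult 3 were higher (Dsp, Dsg2 and Ctnna3) and 1 was lower (Ctnnb1), against 13.0% and 32.1% of the mRNA loci, and the median was 0.47 with 9 of 10 above 0. From E10.5 to the adult 1 was higher (Dsp) and 1 was lower (Ctnnb1), against 14.8% and 27.3%, with a median of 0.13 and 7 of 10 above 0. Neither of these last 2 counts exceeds its background share. With the libraries rescaled by median-of-ratios factors, 6 of the 10 were higher from E13.5 to the adult and 2 from E10.5 to the adult (Dsp by 2.02 and Jup by 1.07), and none was lower in either. The background moved too, to 20.8% higher and 18.9% lower between E13.5 and the adult and to 19.97% and 18.4% between E10.5 and the adult. At a limit of 2, Dsp from E13.5 to the adult was the one change of a member, where 4.41% of the mRNA loci were higher and 9.88% lower by as much. The other shares at that limit were 0.851% higher and 0.247% lower from E10.5 to E13.5, and, between E10.5 and the adult, 5.59% higher and 8.10% lower.

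Changes to E13.5 varied with transcript length over all mRNA loci, and the low values of the members were set beside that. Of the 10 genes, 8 had their lowest level in that library, against 16.7% of the mRNA loci and 36.5% of those in the longest of 5 length classes. After rescaling by median-of-ratios factors 8 of the 10 were again lowest there, against 27.6% of the mRNA loci. Dsg2 and Ctnna3 were lower there by 1 or more than at both other stages, which held for 1.12% of the mRNA loci. Across the mRNA loci the median change from E10.5 to E13.5 went from 0.49 in the shortest of 5 length classes to -0.27 in the longest, and it was nearly the same in all classes, between -0.38 and -0.42, from E10.5 to the adult. From E13.5 to the adult it went from -0.86 in the shortest class to -0.09 in the longest. In that longest class 17.2% of loci were higher and 18.7% lower by 1 or more from E13.5 to the adult. Dsp, Dsg2 and Ctnna3, the members higher in that comparison, were all in it. In the longest class 12.4% of loci were lower by 1 or more at E13.5 than at E10.5, and 3 of the 6 members of that class were. With loci classed by RefSeq length instead, the longest class held 4 members, of which 1 (Dsg2) was lower, against 12.1% of its loci. Relative to the median of its own class, the change of Dsg2 was -1.45, at percentile 1.63 of the class, and that of Dsc2 was -1.02, at percentile 5.81. The relative changes of Cdh2 and Ctnna3 were -0.91 and -0.77, at percentiles 6.96 and 11.5, and those of Dsp and Jup were -0.24 and 0.49. By RefSeq length the values of Dsc2 and Ctnna3 were -1.32 and -1.07, so that 3 members and not 2 stayed lower by 1 or more. The share of all mRNA loci lower by as much relative to their own class is not given here. The part of transcript length in the low values at E13.5 was not tested further.

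**Figure D3:**
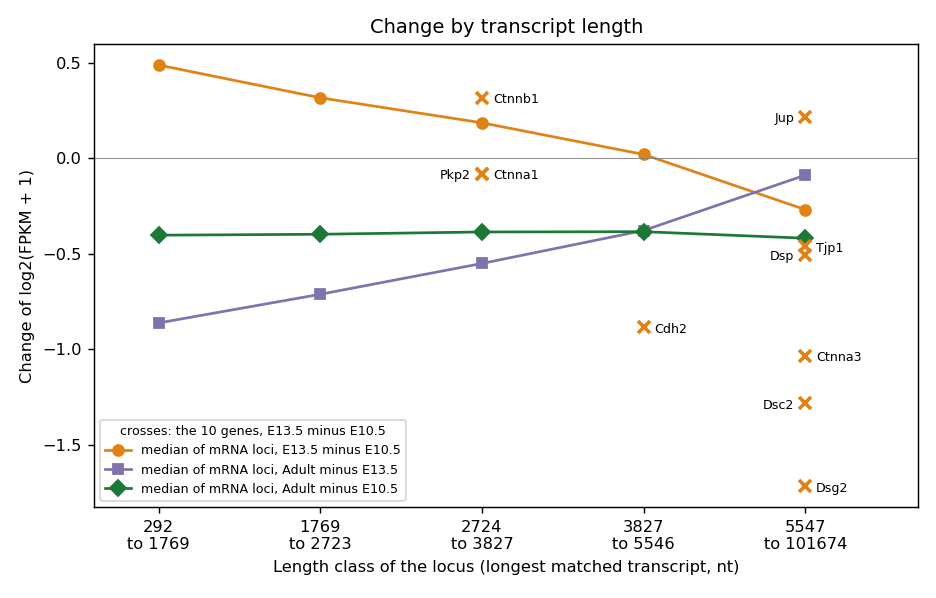
Median change of log2(FPKM + 1) over the mRNA loci of each of 5 length classes, for the 3 comparisons, with the 10 genes as crosses for E13.5 minus E10.5. The line for E13.5 minus E10.5 goes down from 0.49 to -0.27 with length, and Dsg2 and Dsc2 lie farthest below it.

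Ratios of genes within a library do not depend on how the libraries were scaled, although they keep the effect of length where the genes differ in it. The desmosome genes together stood at 0.288, 0.1998 and 0.625 of the adherens junction genes. The adult ratio was thus the highest of the 3. It leans on Dsp (52.7, 36.8 and 163 FPKM) in the one sum and on Ctnnb1 (294, 367 and 138 FPKM) in the other. The remaining desmosome genes at E10.5 and in the adult were Pkp2 at 44.6 and 49.7, Jup at 16.8 and 27.5, Dsg2 at 19.4 and 21.0, and Dsc2 at 27.3 and 15.2 FPKM. The remaining adherens genes were Cdh2 at 69.9 and 73.8, Ctnna1 at 163 and 195, and Ctnna3 at 30.0 and 35.7 FPKM. The ratio without Dsp and Ctnnb1 was not computed, so the higher adult ratio is shown only for sums that include them. Jup was 0.0572 and 0.0538 times Ctnnb1 in the embryonic libraries and 0.199 times in the adult, so that plakoglobin, the closest relative of β-catenin, made up 5.41%, 5.11% and 16.6% of the pair. Ctnna3 stood at 0.184, 0.0914 and 0.183 of Ctnna1, and Dsg2 at 0.277, 0.139 and 0.284 of Cdh2, and both ratios were thus nearly equal at E10.5 and in the adult. Pkp2 went from 0.846 and 1.14 times Dsp in the embryo to 0.304 times in the adult, and Jup from 0.320 and 0.537 times Dsp to 0.168 times. Desmoplakin mRNA thus stood higher against the mRNAs of Pkp2 and Jup in the adult library than in either embryonic one. Des, the desmin gene, was itself highest in the adult, at 385, 359 and 855 FPKM.

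**Figure D4:**
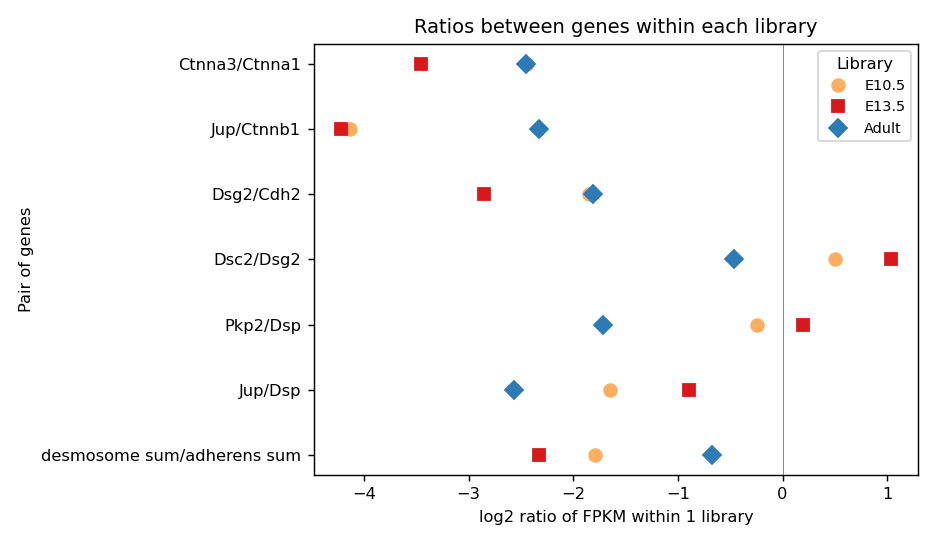
log2 ratio of FPKM within each library for 6 pairs of genes and for the desmosome sum over the adherens sum, with 1 point per stage. The adult points of Jup/Ctnnb1 and of the desmosome sum lie to the right of both embryonic points, those of Pkp2/Dsp and Jup/Dsp lie to the left, and the E10.5 and adult points of Ctnna3/Ctnna1 and Dsg2/Cdh2 nearly coincide.

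The other proteins of the disc were described with a list of 22 genes, all of which were expressed. From E10.5 to the adult 8 were higher and 5 lower by 1 or more, against 14.8% and 27.3% of the mRNA loci, and the median was 0.02. From E10.5 to E13.5 the counts were 2 and 3, against 5.89% and 4.85%, and from E13.5 to the adult 6 and 4, against 13.0% and 32.1%. The widest differences were those of Xirp2, Nrap and Myzap. Xirp2, an actin-binding Xin repeat protein, was at 3.54, 0.194 and 114 FPKM (a change of 4.66 over the whole span). Nrap, which binds actin at the ends of myofibrils, was at 10.03, 26.4 and 165 FPKM (3.92). Myzap, a plaque protein that binds ZO-1, was at 14.1, 26.1 and 135 FPKM (3.17). All 3 were far higher in the adult than in either embryonic library, and by more than Dsp. On the lower side stood Ctnnd1, the p120 catenin that holds cadherins at the membrane, at 79.7, 29.7 and 21.2 FPKM (-1.86). Among the other lower genes, chosen after their values were seen, were Nectin2 (-1.78), a cell adhesion molecule of the immunoglobulin family, Zyx (-1.54), the actin-associated zyxin, and Arvcf (-1.14), a relative of Ctnnd1. The direction of the change held under every scaling and length setting in 18 of the 22 genes, and not in Afdn, Fermt2, Tmem43 and Xirp1.

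**Figure D5:**
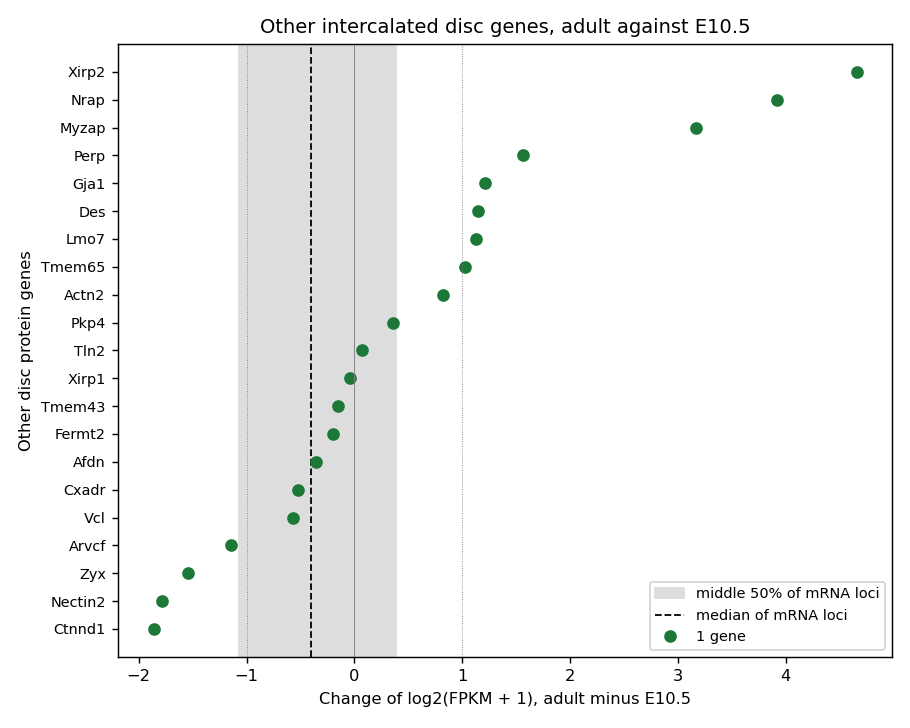
Change of log2(FPKM + 1) from E10.5 to the adult for 21 of the 22 other disc genes, each point from 1 library per stage, with the middle 50% of mRNA loci in grey and their median as a dashed line. Xirp2, Nrap and Myzap lie farthest to the right, between 3.17 and 4.66, and Ctnnd1 lies farthest to the left at -1.86.

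Relatives of the members differed widely in level. Of the 11 desmosome genes typical of stratified epithelia, 1 reached 1 FPKM in any library, Ppl (periplakin) at 1.44 FPKM in the adult, and the 11 summed to 0.847, 1.31 and 1.97 FPKM against 161, 114 and 277 for the 5 cardiac desmosome genes. Dsg1b, Dsg1c and Dsg3 were listed at 0 at E10.5, Dsg4 and Dsc1 at E13.5, and Dsg1c and Dsg4 in the adult. Among 8 other cadherins, Cdh11 was 60.3 and 64.9 FPKM in the embryo and 1.32 in the adult, and Cdh3 (P-cadherin) was 24.2, 23.2 and 0.374 FPKM. At E10.5 Cdh11 thus stood near Cdh2 at 69.9 FPKM, and at E13.5 it stood above Cdh2 at 37.4 FPKM. In the adult Cdh11 and Cdh3 both lay far below Cdh2 at 73.8 FPKM. Cdh13 (T-cadherin), which has no cytoplasmic tail, ran the other way at 8.25, 11.6 and 48.6 FPKM, while Cdh5 (VE-cadherin, of endothelial cells, named after its values were seen) was 50.2, 12.9 and 47.2 FPKM and was low at E13.5 only, as Dsg2 was. Cdh6 was 2.12, 1.42 and 0.263 FPKM and Cdh15 was listed at 0 in the adult. Of the paralogs of the catenins and of ZO-1, Ctnnal1 was 7.55, 10.1 and 12.3 FPKM and Ctnna2 0.135, 1.57 and 0.0110 FPKM, and Ctnnd2 and Tjp3 stayed under 1 FPKM.

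The assembly placed 20 assembled transcripts beside the 14 RefSeq transcripts of the 10 genes. Ctnna3 spans 1582431 bp, with 10 transcripts from 7 starts. Inside its introns lay 6 unspliced loci on its own strand, with medians of 3.20, 0.276 and 2.61 FPKM. All 6 were lowest at E13.5, as Ctnna3 itself was. They follow one another closely (chr10:63955020-64098609) and can be pieces of 1 run of RNA, so they are not 6 separate observations. Unspliced loci on the other strand of a reference gene, the class of these 6, also had their lowest median at E13.5. The medians were 0.472, 0.115 and 0.794 FPKM over 2429 loci. For unspliced loci outside known genes they were 0.165, 0.0688 and 0.768 FPKM over 22805 loci. Lrrtm3, which lies within Ctnna3 on the other strand, stayed at 0.0316, 0.0667 and 0.110 FPKM. Assembled transcripts of Cdh2 and Pkp2 each ran through 1 intron of the reference, and that of Cdh2 was 17222 nt long. The length by which the level of a locus was divided is not given in the sources used here.

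Unspliced RNA on the other strand was found just upstream of 3 members, Dsp, Cdh2 and Ctnna1. The share of all mRNA loci with such RNA was not computed, so whether this count is ordinary cannot be said. At Dsp a locus of 641 nt began 94 bp upstream (chr13:38150515-38151155, minus strand) and was 1.44, 0.777 and 0.424 FPKM, or about 13, 13 and 4 fragments. It was thus lowest where Dsp was highest, but on few fragments. The locus nearest Cdh2, at 421 bp, was 1.39, 1.01 and 2.42 FPKM and that of Ctnna1, at 461 bp, 0.519, 0.551 and 1.63 FPKM, both highest in the adult.

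The mRNA loci of like course were ranked by the distance between log2(FPKM + 1) profiles centred over the 3 libraries, for 7355 loci of 1 gene with 10 FPKM or more in at least 1 library. Nearest to the mean profile of the 5 desmosome genes were Ttc7b, Phf17, Ets2, Clock and Hdlbp, at distances of 0.02 to 0.06. Among those nearest to the mean of the 4 adherens junction genes were Nus1, Wasf2, Trappc8 and Exoc6b, at 0.02 to 0.03. Within a distance of 0.25 lay 77 loci for the desmosome profile and 208 for the adherens profile. With only 3 libraries such closeness is common and is given as a description.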

How the data were processed

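The members and gene lists were chosen with earlier results of these data known. Libraries were made with a stranded total RNA kit. Reads were aligned by the authors to mm10 (TopHat2, Bowtie) and assembled with Cufflinks, and the authors deposited FPKM values per merged locus with the exons of the merged transcripts. Tool versions and options are not given in the sources used here, nor is the handling of reads shared between paralogs. No counts were used, and depth was estimated from the steps of the lowest values. An exact 0 can be a failed estimate. mRNA loci held a transcript matched to a RefSeq protein-coding transcript. Changes of log2(FPKM + 1) were computed with Python 3.11.15, numpy 2.4.6 and pandas 2.3.3, tested on simulated data, and drawn with matplotlib 3.10.9. Of each list, the 4 genes with the largest absolute change from E10.5 to the adult and those at 0 in a library were to be named. In addition, the genes with the nearest profiles were to be named, 5 for each kind of junction. Some items that these rules select are not reported here. Alternatives changed the scaling, the pseudocount, the limit, the comparison set and the loci allowed. Those with length classes were chosen after seeing the data.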

Additional observations from a re-analysis of the deposited data

How the results depend on the processing

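Each value rests on 1 library per stage, so variation between animals is not covered, and no library could be left out. No paired analysis was possible because there was only 1 library per stage. Counts that changed by more than 1.5 times, and percentiles that moved by more than 10 points, are given below. The direction of the change held under all settings for 9, 10 and 9 of the 10 members from E10.5 to E13.5, from E13.5 to the adult and from E10.5 to the adult. The exceptions were Jup (0.22, and -0.08 with equal sums) and Tjp1 (-0.40, and 0.02 relative to length classes). A pseudocount of 0.1 changed no count of members and 1 count of other disc genes (from 2 to 3 higher, E10.5 to E13.5), and allowing only loci of 1 gene changed none of these counts.

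For the members, median-of-ratios factors gave, between E13.5 and the adult, 6 higher and 0 lower and, between E10.5 and the adult, 2 higher and 0 lower. A limit of 2 gave 0 lower from E10.5 to E13.5, 1 higher and 0 lower between E13.5 and the adult, and 0 in both directions between E10.5 and the adult. Relative to length classes, an alternative chosen after seeing the data, 0 were lower from E13.5 to the adult, and 2 were higher and 0 lower between E10.5 and the adult, by either measure of length. For the other disc genes, median-of-ratios factors gave 1 higher from E10.5 to E13.5 and 11 higher and 2 lower between E13.5 and the adult, and equal sums gave 1 higher from E10.5 to E13.5. A limit of 2 gave 0 and 0, then 3 and 1, then 3 and 0 higher and lower in the 3 comparisons. Relative to length classes, 1 was higher from E10.5 to E13.5, 1 lower between E13.5 and the adult and 3 lower between E10.5 and the adult. Except for median-of-ratios factors and the limit of 2, the shares of all mRNA loci under these settings are not given here. Whether those counts are ordinary therefore cannot be said. The cause of these shifts was not tested.

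Percentiles moved with the comparison set. Among loci with 10 FPKM or more, the percentile was 72.4 for Dsp at E13.5, 44.8 and 48.9 for Jup at E10.5 and E13.5, 52.3, 5.81 and 67.5 for Dsg2 in the order of stages, 67.0, 18.6 and 54.8 for Dsc2, 73.0 for Cdh2 at E13.5, 70.1 and 32.7 for Ctnna3 at E10.5 and E13.5, and 72.4, 55.9 and 71.4 for Tjp1. Among all mRNA loci it was 79.1 and 80.7 for Jup and 82.0 and 57.4 for Dsg2 at E10.5 and E13.5, 69.2 and 82.9 for Dsc2 at E13.5 and in the adult, 74.6 for Ctnna3 at E13.5 and 83.3 for Tjp1 at E13.5.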
